A study of Rattus norvegicus with 18 samples.

Results

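The genes described here are Nfe2l2, which encodes the transcription factor NRF2, Keap1, which encodes its inhibitor, and 8 genes known as NRF2 targets, Nqo1, Gclc, Gclm, Slc7a11, Txnrd1, Gsr, Osgin1 and Me1. They were followed in rat cerebral cortex after subarachnoid hemorrhage (SAH), bleeding into the fluid space around the brain. The 10 genes were taken by symbol from a count table of 30735 genes, and Hmox1, another well known target, was kept apart and is given with the neighbouring pathway genes. Each symbol matched 1 gene, and all 10 were among the 18444 genes that passed the filter on low counts. Bulk RNA was sequenced from 18 adult Sprague Dawley rats, 1 library each, in equal groups of 6 called sham, SAH 1d and SAH 7d. In the SAH rats an artery was perforated from within the vessel under pentobarbital anaesthesia and the cortex was taken after 1 day or 7 days, while sham rats underwent that operation with no perforation. The methods speak of cortex from the operated side, and the sample descriptions speak of bilateral cortex and of mice, although the gene identifiers are from the rat. Neither the sex of the rats nor the day on which sham cortex was taken was given in the sources used here.

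NRF2 is a leucine zipper factor that is made continuously and, at rest, is marked for destruction by KEAP1 and the CUL3 ubiquitin ligase. Oxidants and electrophiles modify cysteines of KEAP1, after which NRF2 accumulates, pairs with a small MAF protein and binds antioxidant response elements of genes for glutathione synthesis, thioredoxin reduction, quinone reduction and NADPH supply. In brain this system is best known in astrocytes, which pass glutathione precursors to neurons. Transcript levels, as measured here, report neither the amount of NRF2 protein nor its activity.

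The core of the antioxidant response element, TGACNNNGC, was searched on both strands of RefSeq promoter windows on the GRCr8 build, each reaching from 250 bases before a gene's start to 50 after it. Of the 10 genes, 9 had a window, none was listed for Gsr, and Txnrd1 had 2. The core was in a window of 4 of them, Nfe2l2, Gclm, Txnrd1 and Me1, and in 4038 of all 33469 windows, or 12.1%. The AP-1 motif TGACTCA, which shares its bases with the element where GC follows, was in the Me1 window and in 1550 windows, or 4.63%. The windows of Keap1, Nqo1, Gclc, Slc7a11 and Osgin1 held neither string, which says only that these letters are not in these windows. The stretches before the start are shown for Gclm and Txnrd1, which were higher at SAH 1d, and for Me1, which was not, so that the strings can be set beside the expression values. They are written on the strand of the gene with the match in capitals, and in Gclm and Txnrd1 the element reads on the opposite strand.
Gclm, chr2:213031943-213031991, plus strand, 172 bases before the start: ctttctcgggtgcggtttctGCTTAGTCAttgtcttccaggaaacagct
Txnrd1, chr7:22755954-22756002, minus strand, 78 bases before the start: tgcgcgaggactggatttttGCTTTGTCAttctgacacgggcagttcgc
Me1, chr8:96540383-96540431, minus strand, 167 bases before the start: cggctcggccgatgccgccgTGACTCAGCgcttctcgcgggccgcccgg
The Me1 match holds the AP-1 string as its first bases, and the Nfe2l2 match lies after the start and is not shown. These are matches of letters, and binding was not measured.

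The libraries held 27270026 to 38271014 counts. SAH 1d-3 and SAH 7d-5 stood apart from their groups, with a median Spearman correlation of FPKM to the other libraries of their group of 0.939 and 0.925, against 0.961 to 0.964 for the rest. Summed levels of marker genes, in counts per 1e+06 counts of a library, show what else differed. All 7 neuron markers were found, and their sum was 4754 to 8388 in sham, 4313 to 5427 at SAH 1d and 2106 to 7650 at SAH 7d, lowest in SAH 7d-5. The 6 astrocyte markers summed to 1991 to 3461 in sham, 4629 to 6003 at SAH 1d and 2523 to 5479 at SAH 7d, so that sham and SAH 1d did not overlap. Of the 6 monocyte and macrophage markers 5 were found, with sums of 50.4 to 87.6 in sham, 98.6 to 639 at SAH 1d and 91.1 to 8302 at SAH 7d. The highest of these belong to SAH 1d-3 and SAH 7d-5, and the next highest were 139 and 250. The 6 neutrophil markers summed to at most 5.73 in sham, 6.86 to 73.4 at SAH 1d and 3.08 to 223 at SAH 7d. The highest values were again in SAH 1d-3 and SAH 7d-5. S100a8, S100a9, Cxcr2, Camp and Mmp8 were at 0 in at least 1 library of sham and of SAH 7d. At SAH 1d this held for Camp and Mmp8. The neutrophil sums and the monocyte and macrophage sums also did not overlap between sham and SAH 1d. The 4 choroid plexus markers reached 1054 in SAH 1d-6 and 701 in the next SAH 1d library, against at most 63.4 in sham. The part of these cell markers in the results below was not tested, and in bulk cortex fewer cells of a type and less RNA per cell cannot be told apart.

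At SAH 1d, 5 of the 10 genes were higher than in sham and none was lower. The 5 were Nfe2l2 itself, Osgin1, Txnrd1, Nqo1 and Gclm, with increases between 1.35-fold for Gclm and 6.64-fold for Osgin1. Over all tested genes, 14.9% were called higher and 10.5% lower by the same test, edgeR's quasi-likelihood F test with a Benjamini-Hochberg adjusted p below 0.05 on 6 libraries against 6. The median log2 fold change was 0.41 over the 10 genes and 0.01 over all genes tested. At an unadjusted p below 0.05 the counts were also 5 higher and 0 lower, beside 21.3% and 17.5% of all genes. The Wald test of DESeq2 also called 5 higher and 0 lower, beside 3057 and 2539 of all 18444 genes. Osgin1 alone passed the 2-fold threshold of the study's rule for differential genes, which 5.57% of all genes passed upward. In CPM, which are counts per 1e+06 counts of a library size scaled by TMM, every SAH 1d library lay above every sham library for Gclm, Txnrd1 and Osgin1, a separation shown by 7.89% of all genes. The summed astrocyte, neutrophil, and monocyte and macrophage markers also did not overlap between these groups, and their part in the differences was not tested. Without SAH 1d-3 the count was 4, since Nqo1 dropped out, against 15.4% of all genes called higher, and Gclm, Txnrd1 and Osgin1 did not overlap, beside 9.09%. The background itself depends on the processing. On counts, edgeR called 2748 genes higher and 1936 lower of 18444. On log2(FPKM + 1), limma called 3703 higher and 983 lower of 16184. These fits differ in scale, test and filter, and the part of each was not tested.

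**Figure D1:**
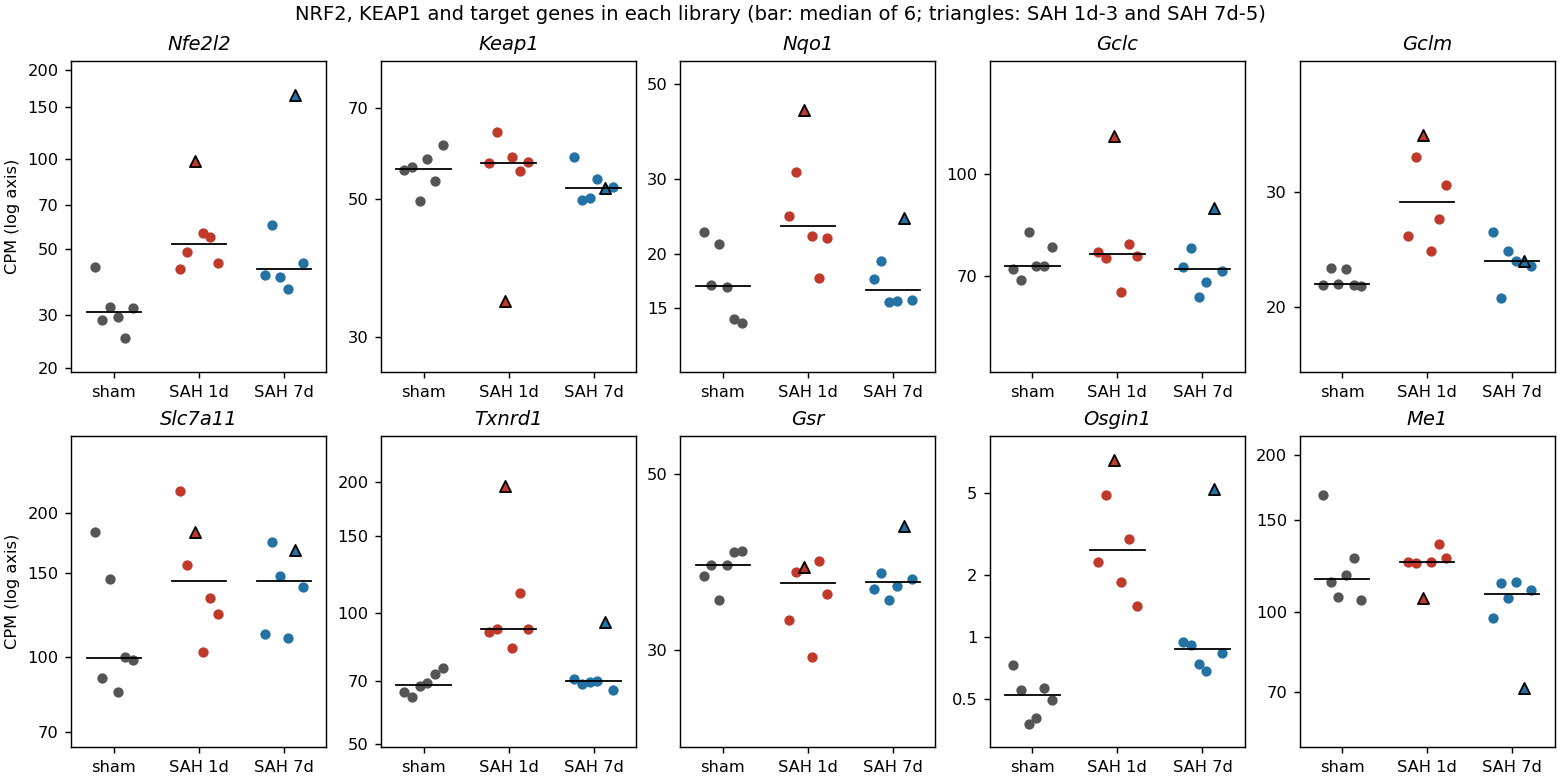
CPM of the 10 genes (log axis, 1 panel a gene) in the 6 libraries each of sham, SAH 1d and SAH 7d. Points are libraries, bars are medians and triangles mark SAH 1d-3 and SAH 7d-5. Gclm, Txnrd1 and Osgin1 show no overlap between sham and SAH 1d, and SAH 7d-5 holds the highest Nfe2l2 value, 164 CPM.

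Nfe2l2 transcripts were at 25.1 to 43.6 CPM in sham with a median of 30.7, and sham-1 was the highest. At SAH 1d they were at 42.9 to 98.5 CPM with a median of 51.9. The lowest SAH 1d library was the only one not above all sham libraries, and SAH 1d-3 was far above the next, at 56.5 CPM. The increase was 1.82-fold, a log2 fold change of 0.86 (SE 0.20, edgeR adjusted p = 0.00777, n = 6 and 6). Without SAH 1d-3 it was 0.64 (adjusted p = 0.0022). With all 18 libraries in one edgeR fit the fold change was the same size, 0.86, but the adjusted p was 0.0845.

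Keap1, the sensor that holds NRF2 back, was at 49.7 to 61.1 CPM in sham, with a median of 56.0, and at 34.3 to 64.1 CPM at SAH 1d, with a median of 57.2. The groups overlapped, and the lowest value belongs to SAH 1d-3, with the next at 55.4 CPM. The log2 fold change was -0.03 with a 95% interval of -0.30 to 0.23 (edgeR adjusted p = 0.862), and 0.07 with an interval of -0.07 to 0.20 without SAH 1d-3.

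Glutathione synthesis is represented by 3 genes, of which 1 rose at SAH 1d. Gclm encodes the modifier subunit of glutamate-cysteine ligase, the rate-limiting enzyme of glutathione synthesis. It was at 21.5 to 23.0 CPM in sham (median 21.7), the narrowest range of the 10 genes on a log scale, and at 24.4 to 36.7 CPM at SAH 1d (median 29.0). All 6 SAH 1d libraries lay above all sham libraries. The log2 fold change was 0.44 (SE 0.10, edgeR adjusted p = 0.00902), and 0.37 without SAH 1d-3 (adjusted p = 0.00751). Gclc, the catalytic subunit of the same enzyme, was at 69.2 to 81.6 CPM in sham (median 72.6) and at 66.2 to 114 CPM at SAH 1d (median 75.7). The groups overlapped, and SAH 1d-3 alone exceeded the sham range. Its log2 fold change was 0.13 with an interval of -0.12 to 0.37 (edgeR adjusted p = 0.444), and -0.0019 with an interval of -0.14 to 0.13 without SAH 1d-3. The transporter subunit Slc7a11, which imports cystine for glutathione, varied most within sham, from 84.7 to 182 CPM (median 99.7). At SAH 1d it was at 103 to 222 CPM (median 144), with 2 libraries above all sham libraries. Its log2 fold change was 0.39 with an interval of -0.08 to 0.86 (edgeR adjusted p = 0.203), so a change of this size was not resolved from the spread. With a library left out it ranged from 0.25 to 0.56 (edgeR adjusted p = 0.055 to 0.400). The highest of these was without sham-1, the highest sham library.

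Among the reductases that keep thioredoxin and glutathione in their working form, Txnrd1 rose and Gsr did not pass the test. Txnrd1, cytosolic thioredoxin reductase, was at 64.0 to 74.9 CPM in sham (median 68.5) and at 83.3 to 196 CPM at SAH 1d (median 92.0). No SAH 1d library fell into the sham range, and SAH 1d-3 stood above the next, at 111 CPM. The log2 fold change was 0.69 (SE 0.18, edgeR adjusted p = 0.0169). Without SAH 1d-3 it was smaller and more precise, 0.44 (SE 0.07, adjusted p = 0.000977). Gsr, glutathione reductase, was at 34.7 to 39.9 CPM in sham (median 38.4) and at 29.4 to 38.8 CPM at SAH 1d (median 36.4). Its 2 lowest SAH 1d libraries were under all sham libraries, and the log2 fold change was -0.11 with an interval of -0.28 to 0.07 (edgeR adjusted p = 0.359).

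Nqo1 and Me1 encode enzymes of quinone reduction and NADPH supply. Nqo1, the quinone reductase often used as a readout of NRF2, was at 13.8 to 22.6 CPM in sham (median 16.9) and at 17.6 to 43.5 CPM at SAH 1d (median 23.3). The groups overlapped, with 3 SAH 1d libraries above all sham libraries and 6 of 6 above the sham mean. The log2 fold change was 0.61 (SE 0.21, edgeR adjusted p = 0.0436), close to the threshold. It missed the threshold at adjusted p = 0.0638 without SAH 1d-3, at 0.0533 with no filter on low counts, and at 0.0572 to 0.0926 when any of sham-2, sham-4, sham-5, sham-6, SAH 1d-1 or SAH 1d-2 was left out. Me1, cytosolic malic enzyme, was at 106 to 168 CPM in sham (median 116) and at 106 to 135 CPM at SAH 1d (median 125). The SAH 1d values lay inside the sham range, and the log2 fold change was 0.01 with an interval of -0.23 to 0.24 (edgeR adjusted p = 0.973).

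Osgin1, an oxidative stress induced growth inhibitor known as an NRF2 target, showed the largest increase of the 10 genes. It was nearly silent in sham, at 0.38 to 0.73 CPM (median 0.52), which is 10 to 22 counts a library. At SAH 1d it was at 1.42 to 7.30 CPM (median 2.66), or 46 to 288 counts. It also passed a filter of at least 10 counts in every library. The groups did not overlap, and SAH 1d-3 and SAH 1d-2 were the highest. The log2 fold change was 2.73 (SE 0.40, edgeR adjusted p = 0.000614), and 2.36 without SAH 1d-3 (adjusted p = 0.000199).

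**Figure D2:**
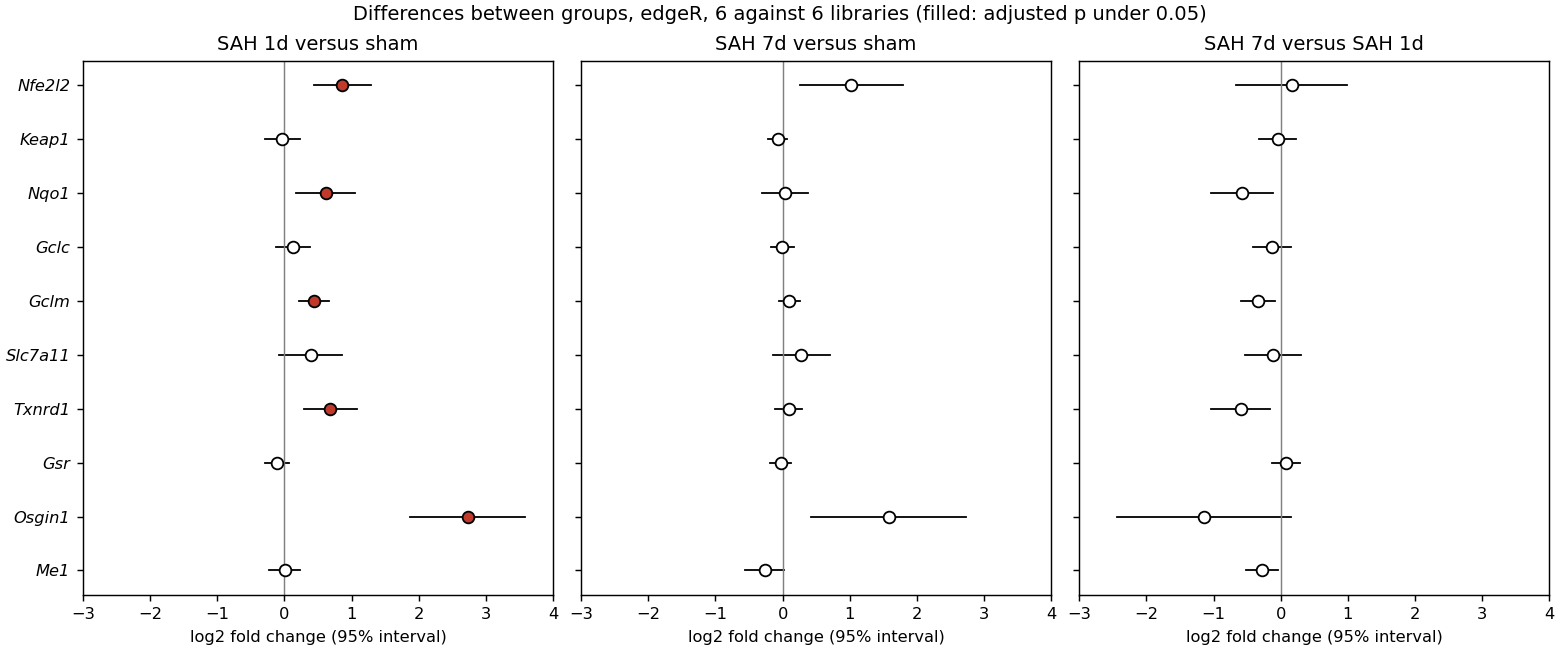
Log2 fold change of each gene with its 95% interval from edgeR in the comparisons SAH 1d versus sham, SAH 7d versus sham and SAH 7d versus SAH 1d. Filled points have an adjusted p under 0.05. Filled points occur only for SAH 1d versus sham, for Nfe2l2, Nqo1, Gclm, Txnrd1 and Osgin1.

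At SAH 7d, none of the 10 genes was called against sham in either direction by edgeR, and neither was any other gene (0% called). The sham libraries are the same as those used for SAH 1d. At an unadjusted p below 0.05, 2 genes were higher, Nfe2l2 and Osgin1, beside 11.7% of all genes, and none was lower, beside 3.66%. The Wald test of DESeq2 called 406 genes higher and 53 lower and none of the 10, though it gave no adjusted p for Osgin1. The median log2 fold change was 0.06 over the 10 genes and -0.0039 over all genes.

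Nfe2l2 was at 36.6 to 164 CPM at SAH 7d, with a median of 42.8. The highest value belongs to SAH 7d-5 and the next was 60.0 CPM, and 3 of 6 libraries lay above all sham libraries. The log2 fold change was 1.02 with an interval of 0.26 to 1.79 (edgeR adjusted p = 0.246), and 0.49 with an interval of 0.17 to 0.81 without SAH 7d-5 (adjusted p = 0.178). Osgin1 was at 0.68 to 5.23 CPM with a median of 0.87, and 5 of 6 libraries lay above all sham libraries, SAH 7d-5 highest and the next at 0.94 CPM. Its log2 fold change was 1.58 with an interval of 0.43 to 2.74 (edgeR adjusted p = 0.240), and 0.66 with an interval of 0.14 to 1.19 without SAH 7d-5 (adjusted p = 0.269). SAH 7d-5 is the library with the highest sums of microglia markers, at 1764 per 1e+06 counts, and of the 4 meningeal fibroblast markers, at 2133, against at most 679 and 255 in the other SAH 7d libraries.

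None of the other 8 genes had an unadjusted p below 0.05 against sham at SAH 7d. Gclm was at 20.7 to 26.1 CPM (median 23.6) with 5 of 6 libraries above the highest sham value of 23.0 CPM, and a log2 fold change of 0.10 with an interval of -0.06 to 0.25 (edgeR adjusted p = 0.472). Txnrd1 was at 66.7 to 95.3 CPM (median 69.8), where the 5 libraries other than SAH 7d-5 fell within the sham range, and its log2 fold change was 0.09 with an interval of -0.11 to 0.29 (adjusted p = 0.588). Nqo1 was at 15.5 to 24.3 CPM (median 16.5), with a log2 fold change of 0.04 and an interval of -0.30 to 0.37. Slc7a11 was at 110 to 174 CPM (median 144), inside the wide sham range, with a log2 fold change of 0.28 and an interval of -0.15 to 0.71. Me1 was at 71.5 to 114 CPM (median 108), below the sham mean in 6 of 6 libraries and below all sham libraries in 2. Its log2 fold change was -0.27 with an interval of -0.56 to 0.03 (edgeR adjusted p = 0.358). With a library left out it ranged from -0.31 to -0.15, and it was -0.15 without sham-1, the highest sham library. Gclc, Gsr and Keap1 had log2 fold changes between -0.08 and -0.0018, and their intervals lay within -0.22 to 0.17.

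The direct comparison of SAH 7d with SAH 1d asks whether the levels differed between the days. With all 12 libraries none of the 10 genes was called, beside 0.282% of all genes higher and 1.08% lower at SAH 7d. DESeq2 called none of them either, beside 367 of all genes higher and 645 lower. None of them was separated between the days, which 2.11% of all genes were in the lower direction. At an unadjusted p below 0.05, 4 were lower at SAH 7d, Nqo1, Txnrd1, Gclm and Me1, beside 8.05% of all genes. None was higher, beside 6.66%. Txnrd1 had a log2 fold change of -0.60 (SE 0.20, edgeR adjusted p = 0.185), with 5 SAH 7d libraries below all SAH 1d libraries. Nqo1 had one of -0.58 (SE 0.21, adjusted p = 0.218), Gclm of -0.34 (SE 0.12, adjusted p = 0.180) and Me1 of -0.28 (SE 0.11, adjusted p = 0.251). For each of these 3, 6 of 6 SAH 7d libraries lay below the SAH 1d mean. Fewer lay below all SAH 1d libraries, 4 for Nqo1, 4 for Gclm and 3 for Me1. Osgin1 had the largest difference and the widest interval, -1.14 with -2.43 to 0.15 (adjusted p = 0.401). Nfe2l2 differed from them in sign, 0.16 with an interval of -0.66 to 0.99 (adjusted p = 0.888), and turned to -0.16 with an interval of -0.44 to 0.12 with SAH 1d-3 and SAH 7d-5 left out.

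This comparison rests on the libraries that stand apart. With SAH 1d-3 and SAH 7d-5 left out, 4 of the 10 genes were called lower at SAH 7d, beside 7.49% of all genes, and none higher, beside 6.13%. Osgin1 was lower by a log2 fold change of -1.72 (SE 0.32, edgeR adjusted p = 0.00511), Txnrd1 by -0.45 (SE 0.07, adjusted p = 0.00287), Nqo1 by -0.50 (SE 0.14, adjusted p = 0.0338) and Me1 by -0.24 (SE 0.06, adjusted p = 0.0216). Osgin1, Txnrd1 and Me1 then did not overlap between the days, a separation in this direction shown by 6.67% of all genes. Gclm, at -0.28 (adjusted p = 0.101), was not called. Leaving out SAH 7d-5 alone left 1 call, Osgin1 at -2.08 (edgeR adjusted p = 0.0121), beside 958 of all genes called lower. Leaving out SAH 1d-3 alone left none, beside 283 of all genes called lower.

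**Figure D3:**
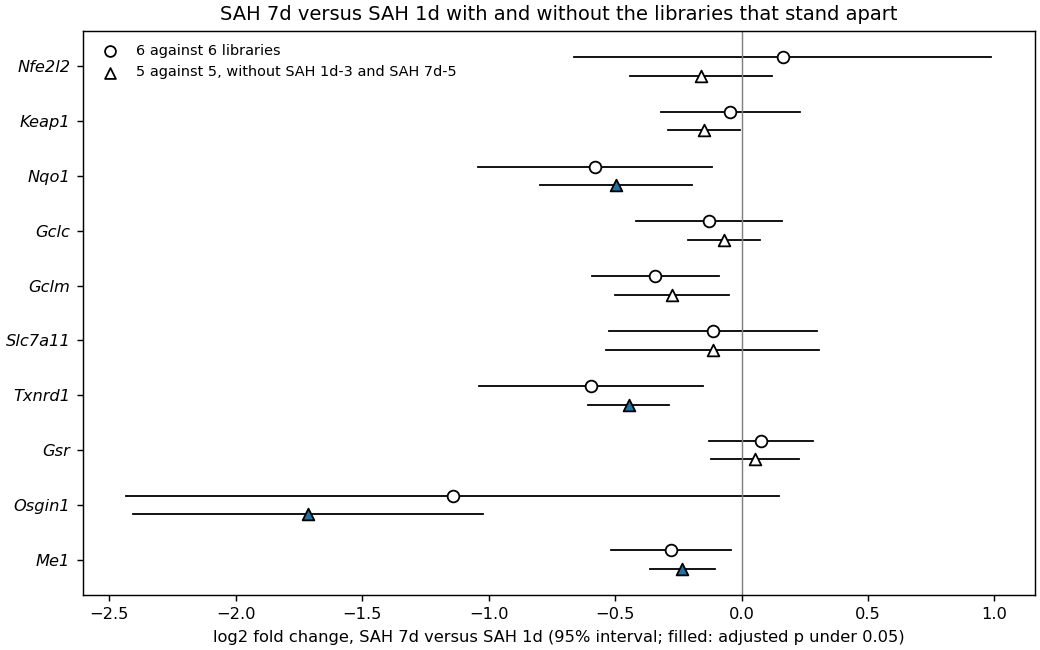
Log2 fold change of SAH 7d versus SAH 1d with 95% intervals from edgeR, with all 6 against 6 libraries (circles) and with SAH 1d-3 and SAH 7d-5 left out (triangles). Filled symbols have an adjusted p under 0.05. The intervals of Osgin1, Txnrd1, Nqo1 and Me1 narrow and the symbols fill when both libraries are left out, while Nfe2l2 crosses 0.

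Counted by library, each SAH 1d library had at least 4 of the 10 genes above all sham libraries, up to 7 in SAH 1d-3, beside 23.7% to 35.9% of all tested genes. The highest of these shares was also that of SAH 1d-3, and Gclm, Txnrd1 and Osgin1 were above all sham libraries in all 6. At SAH 7d, SAH 7d-5 had 7 genes above all sham libraries, beside 37.9% of all genes, and the other libraries had 1 to 3, beside 10.5% to 21.0%, in each case from among Nfe2l2, Gclm and Osgin1. Below all sham libraries were 0 to 2 of the 10 genes in each SAH library, beside 10.8% to 36.7% of all genes. They were Keap1 in SAH 1d-3, Me1 in SAH 7d-1 and SAH 7d-5, Gclm in SAH 7d-2, Gclc in SAH 1d-4, SAH 7d-3 and SAH 7d-4, and Gsr in SAH 1d-1, SAH 1d-4 and SAH 7d-3. Sham libraries varied too, and sham-1 was the highest of its group for Nfe2l2, Nqo1, Slc7a11, Osgin1 and Me1, and for the summed astrocyte and microglia markers, at 3461 and 259 per 1e+06 counts.

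Levels of different genes were compared in FPKM, which the authors scaled to transcript length. In sham the order of the group means was Me1 (39.1 FPKM), Gclc (22.7), Gsr (19.2), Txnrd1 (18.9), Keap1 (16.4), Gclm (13.8), Nfe2l2 (12.7), Slc7a11 (12.1), Nqo1 (10.3) and Osgin1 (0.231). Only the steps from Me1 to Gclc and from Nqo1 to Osgin1 separate neighbours whose ranges over 6 libraries do not overlap. At SAH 1d the mean of Txnrd1 moved to the second place, at 32.7 FPKM, and that of Nfe2l2 to the fourth, at 25.1 FPKM, and every neighbour down to Nqo1 overlapped. Osgin1 remained the lowest, at 1.71 FPKM in the mean and 0.704 to 3.55 FPKM over the libraries. At SAH 7d Nfe2l2 had the second highest mean, 27.0 FPKM, but its median was 17.6 FPKM in the fifth place, since SAH 7d-5 was at 69.7 FPKM. The level of Gclc exceeded that of its partner Gclm in the means of all 3 groups, by 22.7 to 13.8 FPKM in sham, 26.7 to 20.2 FPKM at SAH 1d and 23.4 to 15.2 FPKM at SAH 7d.

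**Figure D4:**
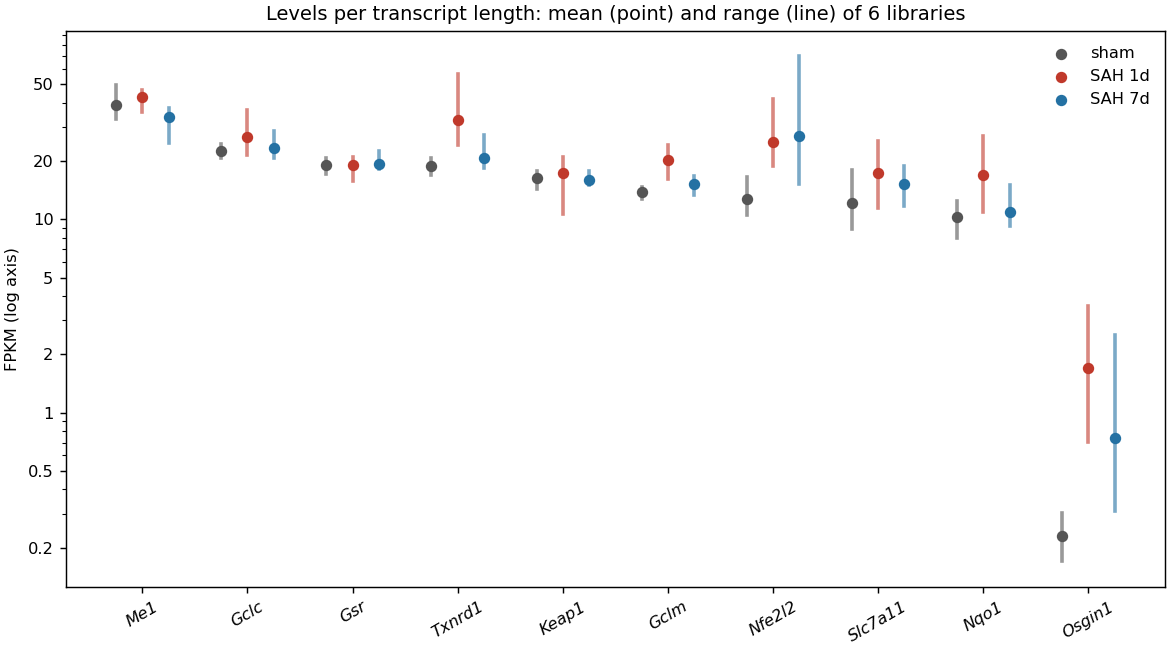
FPKM (log axis) of the 10 genes in the order of their sham means, with the mean of 6 libraries as a point and the lowest to highest library as a line, for sham, SAH 1d and SAH 7d. Me1 is the highest and Osgin1 the lowest in each group, and the ranges of Nfe2l2 reach 42.1 FPKM at SAH 1d and 69.7 FPKM at SAH 7d.

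Other genes of the pathway were taken from 7 lists with 66 genes, of which 59 were tested. At SAH 1d, 18 of the 59 were higher than in sham and 2 were lower. Without SAH 1d-3 the counts were 17 and 4, beside 2846 and 2406 of all 18444 genes. At SAH 7d none was called against sham, and against SAH 1d none was higher and 3 were lower, beside 0.282% and 1.08% of all genes. With SAH 1d-3 and SAH 7d-5 left out, 1 was higher at SAH 7d than at SAH 1d, Gstm2, and 10 were lower, beside 6.13% and 7.49% of all genes. The 10 include Maff, Sesn2 and Chac1, which were called with all libraries, and Hmox1, Atf3, Trib3, Slc3a2 and Mafk, which were not. Over all tested genes, with no library left out, the shares called higher and lower at SAH 1d against sham were 14.9% and 10.5%.

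Among 12 regulators and partners of NRF2, 3 rose at SAH 1d and the median log2 fold change was 0.05. The rises were in Maff and Mafk, which encode small MAF proteins, the dimer partners of NRF2, and in the ubiquitin ligase gene Trim21. Mafg, another small MAF gene of the list, had a log2 fold change of 0.08 (SE 0.13, edgeR adjusted p = 0.681). Maff went from 0.371 to 0.899 CPM in sham to 4.80 to 43.7 CPM, a log2 fold change of 4.34 (SE 0.61, edgeR adjusted p = 0.000505), and of 3.46 without SAH 1d-3 (adjusted p = 1.26e-05). Mafk rose by 0.99 (SE 0.22, adjusted p = 0.00632) and Trim21 by 0.88 (SE 0.30, adjusted p = 0.0447), and the call for Trim21 was lost without SAH 1d-3 (adjusted p = 0.079). Maff was lower again at SAH 7d than at SAH 1d, by a log2 fold change of -3.23 (SE 0.65, adjusted p = 0.0312), and of -2.60 with SAH 1d-3 and SAH 7d-5 left out (adjusted p = 0.00215).

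Of 12 tested genes for glutathione synthesis and use, 4 rose at SAH 1d and 1 fell, with a median log2 fold change of 0.17. Slc3a2, the partner chain of Slc7a11 in the cystine transporter, rose by 0.79 (SE 0.13, edgeR adjusted p = 0.00115), from 131 to 174 CPM in sham to 206 to 340 CPM, without overlap. The glutathione transferase Mgst1 rose by 1.29 (SE 0.22, adjusted p = 0.00171) and the glutathione peroxidase Gpx2 by 2.62 (SE 0.79, adjusted p = 0.0279), the latter at 0 to 0.566 CPM in sham and not called without SAH 1d-3 (1.88, adjusted p = 0.0574). The export pump Abcc4, named after its value was seen, rose by 0.49 (SE 0.14, adjusted p = 0.0229). Gstm2, a glutathione transferase, fell by 0.52 on the log2 scale (SE 0.13, adjusted p = 0.0125).

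Of 6 thioredoxin and peroxiredoxin genes, Prdx1 alone rose, by 0.70 (SE 0.18, edgeR adjusted p = 0.013). Of 4 genes of NADPH supply reported here, 1 rose, Taldo1, an enzyme of the pentose phosphate pathway, by 0.43 (SE 0.14, adjusted p = 0.0394). Of 8 genes of quinone, carbonyl and other detoxification, 1 rose, Cyp1b1, a cytochrome P450 best known as a target of the aryl hydrocarbon receptor. It rose by 2.78 (SE 0.68, adjusted p = 0.011), with 200 CPM in its highest library, and by 1.40 without SAH 1d-3 (adjusted p = 0.00134). The median log2 fold changes of these lists were 0.16, 0.11 and 0.13.

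Of 7 heme and iron targets, 2 rose at SAH 1d and 1 fell. Hmox1, heme oxygenase, was at 4.45 to 7.26 CPM in sham and at 57.2 to 380 CPM at SAH 1d, a 22.3-fold difference and a log2 fold change of 4.48 (SE 0.47, edgeR adjusted p = 6.48e-05). Without SAH 1d-3 the difference was 13.9-fold, a log2 fold change of 3.79 (adjusted p = 1.26e-07). At SAH 7d Hmox1 was at 7.56 to 238 CPM, above all sham libraries, with a log2 fold change of 3.08 (SE 0.88, adjusted p = 0.214), and of 1.06 without SAH 7d-5 (adjusted p = 0.118). Against SAH 1d it was -1.38 (SE 0.91, adjusted p = 0.517), and -2.74 with SAH 1d-3 and SAH 7d-5 left out (adjusted p = 0.000165). The ferritin chain Ftl1 rose at SAH 1d by 0.64 (SE 0.19, adjusted p = 0.0261). Fech, which inserts iron into the porphyrin ring to make heme, fell by 0.31 on the log2 scale (SE 0.09, adjusted p = 0.0226).

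The ATF4 response to amino acid and unfolded protein stress, whose known targets include Slc7a11, had the highest median of the lists, 0.66, with 6 of 10 genes higher at SAH 1d. The transcription factor Atf3 rose by 4.61 (SE 0.63, edgeR adjusted p = 0.000389), and by 3.95 without SAH 1d-3 (adjusted p = 6.52e-05). The pseudokinase Trib3 rose by 4.08 (SE 0.53, adjusted p = 0.00028) and Sesn2 by 1.48 (SE 0.17, adjusted p = 0.000133). Sesn2 was lower at SAH 7d than at SAH 1d by -1.12 (SE 0.23, adjusted p = 0.0377), as was Chac1, named after its value was seen, by -1.56 (SE 0.17, adjusted p = 0.00098). Atf4 itself had a log2 fold change of 0.44 at SAH 1d (SE 0.25, adjusted p = 0.21).

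**Figure D5:**
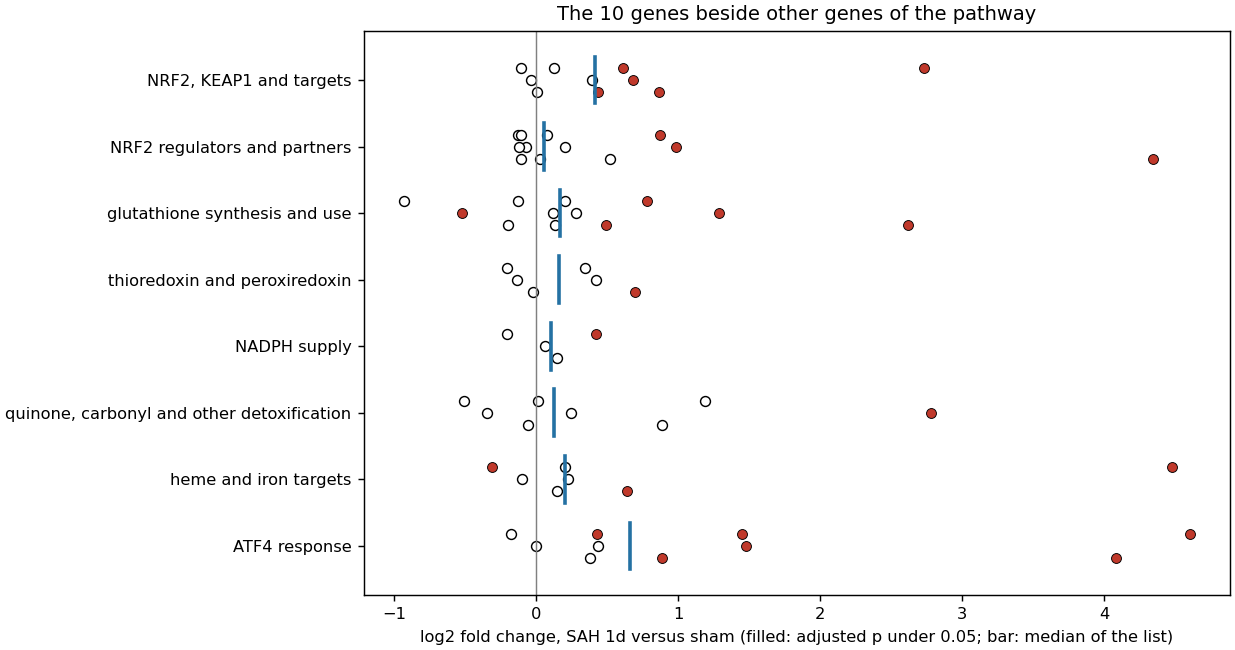
Log2 fold change of SAH 1d versus sham for each of the 10 genes and each tested gene of the 7 lists, 1 row a list. Filled points have an edgeR adjusted p under 0.05 and the vertical bar is the median of the list. The 10 genes have a median of 0.41, and Hmox1, Maff, Atf3 and Trib3 lie at 4.08 or more.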

How the data were processed

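Cortical RNA of 18 rats was sequenced, 6 libraries each in sham, SAH 1d and SAH 7d, with 27270026 to 38271014 counts a library. The authors deposited counts of reads per gene, whole numbers that are not normalized. The deposited FPKM values were scaled by the authors to transcript length and mapped reads. The study's methods name alignment to Rnor_6.0, while the submitters' processing notes name fastp, HISAT2, DESeq2 1.16.1 and mm9, a mouse build. The counting program is not given in the sources used here. Replicates were not pooled, and libraries were assigned to groups by the names of their columns.

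Counts were tested with edgeR 4.0.16 in R 4.3.3, as filterByExpr over 18 libraries, TMM and the two-sided quasi-likelihood F test on the 12 libraries of a comparison, with Benjamini-Hochberg adjustment over 18444 genes. A gene was called at an adjusted p under 0.05. The filter needs only 1 group to pass. Intervals are at 95% and rest on the spread between rats. Alternatives were DESeq2 size factors, the DESeq2 1.42.0 Wald test, limma 3.58.1 on log2(FPKM + 1) and log2(FPKM + 0.1) for a mean FPKM of at least 0.5, other filters, a robust fit, all libraries in 1 fit, a replicate block, and libraries left out.

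The 10 genes, the 7 pathway lists and the 12 marker lists were chosen with earlier results of these data known. All 10 genes are named. From each pathway list the text names up to 3 genes with the largest increases and up to 2 with the largest decreases among those called at SAH 1d against sham, and always Hmox1 and Slc3a2. Abcc4, Atf4, Chac1 and Mafg were named outside this rule. Of 66 list genes, Slc40a1 was left out because 2 lines carry its symbol, 60 were found on a single line, and 59 of these passed the filter and were tested. A further gene of the NADPH supply list is not reported here. Sequences are from RefSeq on GRCr8, and no coordinates of the Rnor_6.0 build were used. Tables and figures were made with Python 3.11.15.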

Additional observations from a re-analysis of the deposited data

Results flagged for a closer look

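In each group of 6 libraries and for each of the 10 genes, a library was singled out where its gap to the nearest other library took up more of the group's range in CPM than Dixon's 95% critical value allows. This holds for 10 of the 30 groups tested, where chance gives about 1 in 20 groups, or 1.5. The 10 are not independent, since 8 of them come from SAH 1d-3 and SAH 7d-5, and the cause was not tested.

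SAH 1d-3 was the highest SAH 1d library for Nfe2l2 at 98.5 CPM, for Gclc at 114 CPM and for Txnrd1 at 196 CPM, and the lowest for Keap1 at 34.3 CPM. SAH 7d-5 was the highest SAH 7d library for Nfe2l2 at 164 CPM, for Txnrd1 at 95.3 CPM, for Gsr at 42.9 CPM and for Osgin1 at 5.23 CPM. Monocyte and macrophage markers were also highest in these libraries, at 639 and 8302 per 1e+06 counts. Among sham libraries, sham-1 stood apart for Nfe2l2 at 43.6 CPM and for Me1 at 168 CPM, and it had the highest summed astrocyte markers of its group, 3461 per 1e+06 counts.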

How the results depend on the processing

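The 5 genes called at SAH 1d kept their direction under all 23 alternatives. Gclm, Txnrd1 and Osgin1 kept their calls in all of them, Nfe2l2 lost its call with all 18 libraries in one fit and Nqo1 lost its call in 9. SAH 7d-5 is not in this comparison, so leaving out SAH 1d-3 and SAH 7d-5 is the same fit as leaving out SAH 1d-3 alone. That fit is counted under both names in the 23 and in the 9. The count of genes called higher was 4 to 5 with a library left out, beside 2101 to 2846 of all genes. At SAH 7d against sham the count stayed at 0 throughout. On FPKM, Osgin1 at SAH 7d and Nfe2l2 at SAH 1d did not overlap with sham, whereas in CPM they did. The share of all genes without overlap on the FPKM scale was not computed, so nothing is read from this. For SAH 7d versus SAH 1d, 4 genes were called lower and 3 did not overlap with SAH 1d-3 and SAH 7d-5 left out, and 0 to 1 with a single library left out, the call being Osgin1 without SAH 7d-5. By medians, 6 of 10 genes kept their place in the order of levels at SAH 1d and 6 at SAH 7d. The cause of these changes was not tested.

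Signs changed only where the gene was called under neither setting. For SAH 1d versus sham the log2 fold change of Keap1 was 0.068 with SAH 1d-3 and SAH 7d-5 left out, 0.056 on log2(FPKM + 1) with and without the filter and 0.057 on log2(FPKM + 0.1), and ranged from -0.085 to 0.068 with a library left out. Gclc was at -0.0019 without SAH 1d-3 and ranged from -0.0019 to 0.18, Gsr at 0.0015 on log2(FPKM + 1) with and without the filter and 0.0014 on log2(FPKM + 0.1), and Me1 at -0.0024 with DESeq2 and -0.035 to 0.11 with a library left out. For SAH 7d versus sham, Nqo1 was at -0.063 without SAH 7d-5 and ranged from -0.063 to 0.13. Gclc was at 0.011 with at least 10 counts in every library, 0.037 on log2(FPKM + 1) with and without the filter and 0.038 on log2(FPKM + 0.1), and ranged from -0.056 to 0.033. Gsr was at 0.016 on each FPKM scale. For SAH 7d versus SAH 1d, Nfe2l2 was at -0.16 with SAH 1d-3 and SAH 7d-5 left out, -0.078 on log2(FPKM + 1) with and without the filter and -0.086 on log2(FPKM + 0.1), and ranged from -0.39 to 0.39. Keap1 ranged from -0.15 to 0.0069 and Slc7a11 from -0.20 to 0.022 with a library left out.

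Replicate numbers did not pair the rats, since the correlations of same-numbered libraries lay between -0.25 and 0.20 and not every library correlated best with its own number. With the number as a replicate block, 6 of the 10 genes were called higher at SAH 1d, beside 2268 of all 18444 genes. Slc7a11 was the additional one (log2 fold change 0.40, edgeR adjusted p = 0.0142), and Nfe2l2 was at -0.033 for SAH 7d versus SAH 1d. The block left 3 genes higher and 26 lower among all genes in that comparison and none against sham at SAH 7d.

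Counts over all genes moved more. For SAH 1d versus sham, 1509 were higher and 953 lower with all 18 libraries in one fit, and 983, 961 and 769 were lower on log2(FPKM + 1), log2(FPKM + 0.1) and unfiltered FPKM, with 79.0% of calls higher on log2(FPKM + 1) against 58.7% on counts. The median of all genes was 0.11 on log2(FPKM + 0.1) and 0.0086 on counts. For SAH 7d versus sham, DESeq2 called 406 higher and 53 lower, the joint fit 8 and 1, edgeR without SAH 7d-4 called 3 higher, and unfiltered FPKM 1 lower. For SAH 7d versus SAH 1d, against 52 higher and 200 lower, DESeq2 called 367 and 645, the joint fit 236 and 543, the fit with SAH 1d-3 and SAH 7d-5 left out 1130 and 1382, and the unfiltered fit 27 higher. On the FPKM scales 367, 368 and 429 were lower, and with a library left out 11 to 587 were higher and 91 to 958 lower.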
